A study of Mus musculus with 22 samples.

Results

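Splenic immature B cells of Tcrd-H2BeGFP mice given diphtheria toxin were compared with those of untreated Tcrd-GDL mice. The H2BeGFP toxin group had 3 libraries (replicates 1 to 3) and the untreated GDL group had 5 (replicates 4 to 8). Both groups were sorted as B220+CD93+ cells, and both carry a reporter allele at Tcrd, the locus of the T cell receptor delta chain. The GDL allele encodes a green fluorescent protein, a diphtheria toxin receptor and luciferase, and the H2BeGFP allele a histone-tagged green fluorescent protein. The labels state no toxin receptor for the H2BeGFP strain. Toxin was injected into the peritoneum 2 times at an interval of 48 h, each time with 15 ng per g of body weight, and the spleens were examined on day 8. The comparison covers the 13364 of 26097 genes in the table of experiment 2 with a mean of at least 10 normalized counts over its 10 libraries. The remaining 2 libraries are toxin-treated GDL mice, which the series design describes as depleted of γδ T cells. Their values are given beside the others as the depleted GDL group. Strain and toxin both differed between the 2 groups compared, so that their effects cannot be told apart, and age, sex and the batch of each sort are not stated in the labels. Whether libraries of the same group came from separate mice is not stated, so that p-values cover the spread between libraries, which may be technical.

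Immature B cells leave the bone marrow carrying surface IgM and pass through transitional stages in the spleen, where CD93 is lost as they become follicular or marginal zone B cells. Along this path the recombination genes Rag1 and Rag2 are switched off, and receptors for follicular chemokines and oxysterols are gained. Cells that have just arrived therefore differ from later transitional cells in recombination and homing genes. These lists were examined together with cell division, stress hormone, interferon, metabolic and other-cell genes.

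The 10 libraries held 22022330 to 36840455 reads, and values are counts that the authors normalized per library. Defining B cell genes were abundant in every library, among them Cd79a at 21349 to 25393 in the H2BeGFP toxin group and 21351 to 26435 in the untreated group, and Ms4a1, the gene for CD20, at 43285 to 52763 and 45813 to 59149. Xist, which is transcribed from the inactive X chromosome, lay at 24907 to 30283 and 18895 to 30333, so that all of these libraries contained RNA of female cells. The mitochondrial ribosomal RNA mt-Rnr2 took the largest share of reads in each library, 14.5% to 17.9% in the H2BeGFP toxin group and 20.6% to 25.2% in the untreated group. Genes of T cells were also higher in the H2BeGFP toxin libraries and in untreated replicate 8, as described with the other-cell genes. In bulk RNA, a change in the number of cells of one type cannot be told apart from a change in RNA per cell.

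The test (limma on log2(value + 1), Benjamini-Hochberg adjusted p under 0.05, no minimum fold) called 2093 genes, 15.7% of those tested. Of these, 978 were higher in the H2BeGFP toxin group (7.32%) and 1115 lower (8.34%). Most differences were small. The median absolute log2 fold change of all tested genes was 0.23, and 197 of the called genes (1.47% of those tested) differed at least 2-fold, 118 higher (0.883%) and 79 lower (0.591%). The 2 groups did not overlap for 3121 genes (23.4%). How many genes were called depended on single libraries. Without H2BeGFP toxin replicate 2 the count was 196 (1.47%), of which 195 were also called with all libraries, without replicate 3 it was 806 (6.03%) and without replicate 1 it was 1798 (13.5%). It was 1472, 1298, 1008, 1232 and 2994 without untreated replicates 4 to 8 in turn (11%, 9.71%, 7.54%, 9.22% and 22.4%). On recovered reads, edgeR called 2102 genes (15.7%) and DESeq2 2615 (19.6%). With the mean level of 20 common T cell genes as a covariate, a level that was itself mostly higher in the H2BeGFP toxin libraries, 18 genes were called (0.135%). The plot of fixed gene lists gives an overview of the directions. The shares of all tested genes, 7.32% higher and 8.34% lower, are the comparison for the counts of every list below.

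**Figure D1:**
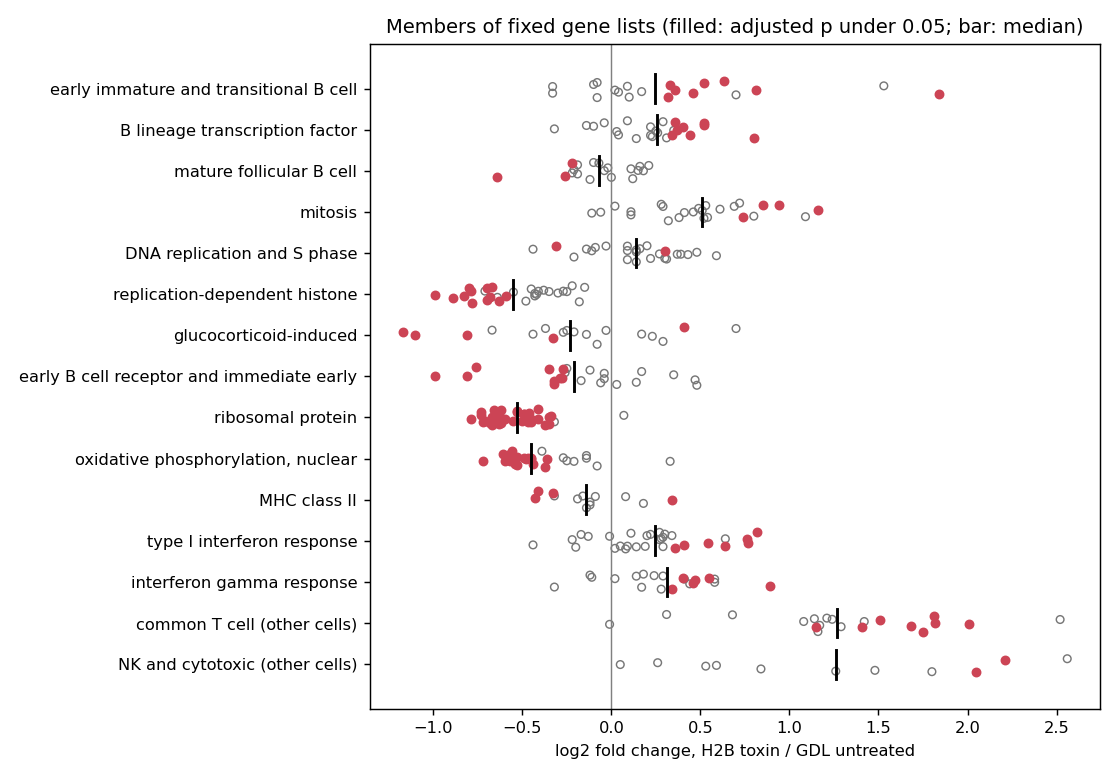
Log2 fold change (x axis, H2BeGFP toxin over untreated GDL) of the tested members of 15 gene lists (y axis), 1 point per gene, filled where the limma adjusted p was under 0.05. The black bar is the list's median. Ribosomal protein, oxidative phosphorylation and histone genes lie mostly below 0, and mitosis and common T cell genes mostly above it.

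The difference with the smallest p was at the tumour necrosis factor receptor cluster on chromosome 7. Tnfrsf26, a receptor of that superfamily, had no read in any of the 3 H2BeGFP toxin libraries. In the untreated GDL libraries it stood at 262, 298, 222, 249.8 and 271 normalized counts, and in the depleted GDL libraries at 224 and 174. The groups did not overlap, and the H2BeGFP toxin level was at least 283-fold lower with 3 reads in the whole group taken as the floor (adjusted p = 1.84e-12). In the other tables, each on its own scale, GDL and H2BeGFP libraries differed as well, though strain and culture differed together there. Tnfrsf26 was at 107 to 188 in the 6 GDL libraries of experiment 1 and at 0 to 0.935 in the 6 cultured H2BeGFP libraries. Its neighbour Tnfrsf22, a decoy receptor gene, was at 6.99, 17.4 and 11.3 in the H2BeGFP toxin group and 38.1, 59.4, 44.9, 50.8 and 80.1 in the untreated group (log2 -2.15 ± 0.33, adjusted p = 0.00232). Tnfrsf23, another decoy receptor gene, was at 0 in all H2BeGFP toxin libraries and at 2.67 to 10.3 in the untreated ones, below the level needed for testing. Reads of close copies in this cluster may be shared between its genes.

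Within 1000 kb of Tnfrsf26 (GRCm38, chr7:143607659-143628722), 9 of 18 tested genes were called (50%), 5 higher and 4 lower. Of all tested genes 15.7% were called. The stretch was centred on the gene with the smallest p, and that gene is counted in it. In the wider window of chromosome 7 from 140 to 150 Mb, 10 of 63 tested genes were called (15.9%). Tspan32, a tetraspanin of blood cells at the far end of this stretch, stood at 548, 612 and 531 in the H2BeGFP toxin group and 1503, 1565, 1616, 1600.3 and 1874 in the untreated group. The depleted GDL libraries, at 1503 and 1578, lay with the untreated ones, and the groups compared did not overlap (log2 -1.53 ± 0.09, adjusted p = 5.74e-08). Mrgpre, a G protein-coupled receptor gene, was at 127, 50.2 and 109.9 against 299, 298, 318, 296 and 394 (log2 -1.83 ± 0.23, adjusted p = 0.000815). Its level in untreated replicate 8 was the highest of that group. The synaptic scaffold gene Shank2 went the other way, at 88.6, 92.2 and 161 against 14.9, 15.6, 3.74, 9.35 and 7.75 (log2 3.43 ± 0.45, adjusted p = 0.00103). The cation channel gene Trpm5 was also higher, at 241 ± 66 against 96.5 ± 22.9 (log2 1.31 ± 0.24, adjusted p = 0.00478). Cd81, a tetraspanin of the B cell coreceptor, was at 3634, 3539.5 and 3591 against 2563, 2686, 2307, 2072 and 2537 (log2 0.57 ± 0.10, adjusted p = 0.00438), and Osbpl5, a lipid transfer gene, rose by log2 0.59 ± 0.09. The noncoding RNA Kcnq1ot1 was higher by log2 0.54 ± 0.12 but did not pass once values were corrected for gene length (adjusted p = 0.327). Between these genes, Nap1l4, Cars, Nadsyn1 and Dhcr7 did not pass the test, with log2 fold changes of 0.09, 0.03, -0.03 and -0.24. Apart from Kcnq1ot1, the 8 other called genes of the locus passed in all 8 fits that left out 1 library.

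**Figure D2:**
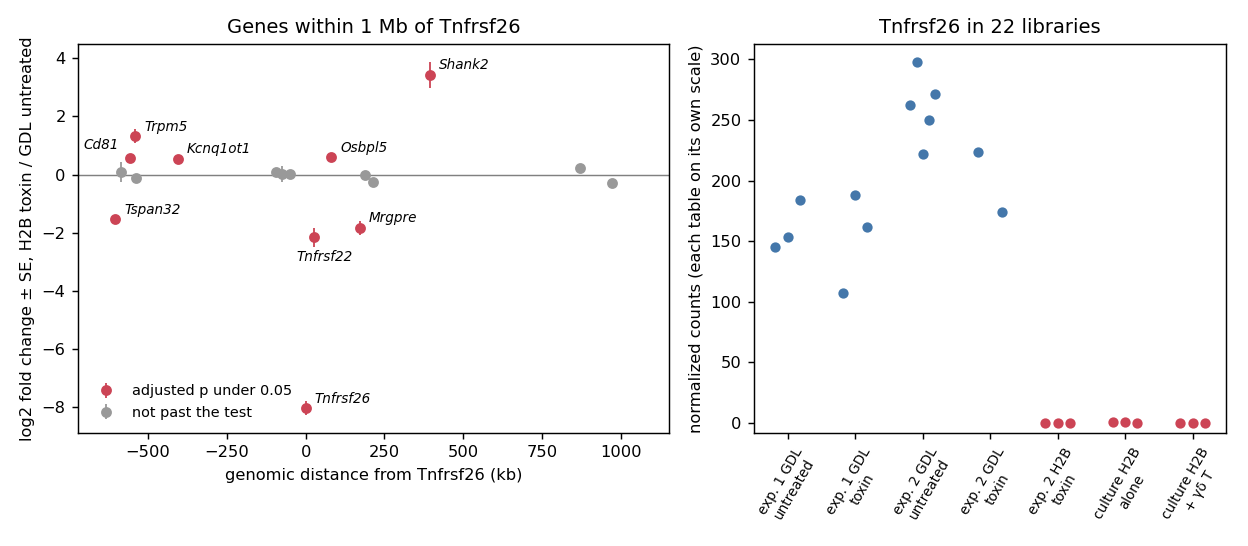
Left, log2 fold change ± SE (y axis, H2BeGFP toxin over untreated GDL) of the 18 tested genes within 1000 kb of Tnfrsf26 by distance in kb (x axis), red where the adjusted p was under 0.05. Right, normalized counts of Tnfrsf26 in 22 libraries, each table on its own scale: the GDL libraries lie at 107 or above and the H2BeGFP libraries at 0.935 or below.

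Among the 6 genes with the smallest p, the 3 outside this locus were close to absent from one of the 2 groups compared. Gm15446, a predicted gene on chromosome 5, was at 282, 253 and 226 in the H2BeGFP toxin group and 4.98, 2.08, 2.49, 10.7 and 1.72 in the untreated group (log2 5.79 ± 0.51, adjusted p = 1.39e-05). In the cultured H2BeGFP libraries it lay at 55.4 to 98.4, and in the GDL libraries of experiment 1 at 0.848 to 43.5, where it varied between libraries. Gm6768, a predicted gene on chromosome 12, was at 103, 119.8 and 192 against 3.32, 2.08, 7.48, 5.34 and 12.1 (log2 4.43 ± 0.51, adjusted p = 0.000517), with 39.2 to 72.2 in culture and 0 to 5.09 in experiment 1. Pkd1l1, a polycystin family gene on chromosome 11, was at 0, 1.02 and 0.705 against 17.4, 23.9, 22.4, 25.4 and 43 (log2 -4.12 ± 0.50, adjusted p = 0.000727). It lay at 0 to 1.75 in culture and at 0 to 9.27 in the GDL libraries of experiment 1, so that it was low in both strains there. In each of the 3 genes the 2 depleted GDL libraries lay within the range of the untreated ones, apart from Pkd1l1 at 14.2 and 23.3, where 1 of them was lower. By a rule of at most 5 in every library of one group and at least 20 in every library of the other, Tnfrsf26 was the one gene found, also with limits of 10 and 50 or 2 and 20. Called genes were otherwise spread over the genome. In 254 windows of 10 Mb the median share of called genes was 15.8%, and 14 windows exceeded 30%. The highest share, 52.2% (12 of 23 genes, 3 higher and 9 lower), was on chromosome X at 30 to 40 Mb.

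Several genes of the earliest splenic immature B cells, Rag1 and Cd93 among them, were higher in the H2BeGFP toxin group. Of 20 tested members of the early immature and transitional list, 8 rose (40%) and none fell, where 7.32% of all tested genes rose and 8.34% fell. The median log2 fold change was 0.25, where that of all tested genes was 0.00. Rag1, which encodes the recombinase that assembles antigen receptor genes, stood at 611, 726 and 581 in the H2BeGFP toxin libraries. It was at 209.8, 299, 94.8, 171 and 169 in the untreated and 36.2 and 52.5 in the depleted GDL libraries. Every H2BeGFP toxin library exceeded every GDL library (log2 1.84 ± 0.26, adjusted p = 0.00187). Its partner Rag2 was at 31.5, 21.5 and 14.1 against 9.95, 5.21, 8.73, 2.67 and 10.3 and did not pass (log2 1.53 ± 0.55, adjusted p = 0.0683). Cd93, the marker used in the sort, was at 1757, 2199.9 and 2290.4 against 1299, 1409, 906, 1216 and 1114, again without overlap (log2 0.81 ± 0.13, adjusted p = 0.00232). The depleted GDL libraries, at 1094 and 1187, were within the untreated range. Atp1b1, a sodium pump subunit, was at 1888 ± 173 against 1226 ± 168 (log2 0.63 ± 0.11, adjusted p = 0.00385), and Ebf1, a factor that specifies the B lineage, at 7134 ± 872 against 4959.8 ± 379 (log2 0.52 ± 0.09, adjusted p = 0.0046). Lef1, Cecr2, Spn and Sox4 were the other members that rose. With the T cell level as covariate 0 members were called and the list's median was 0.04, where 0.135% of all tested genes were called. Which cells the RNA of these members came from was not tested. After the length correction 5 were called higher, and DESeq2 called 8 higher and 1 lower. Rag1, Cd93, Atp1b1 and Ebf1 passed in all 8 fits that left out 1 library, while the count of the list was 5 without untreated replicate 5 and lay between 4 (without untreated replicate 6 or 7, or H2BeGFP toxin replicate 2 or 3) and 10 (without untreated replicate 8).

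**Figure D3:**
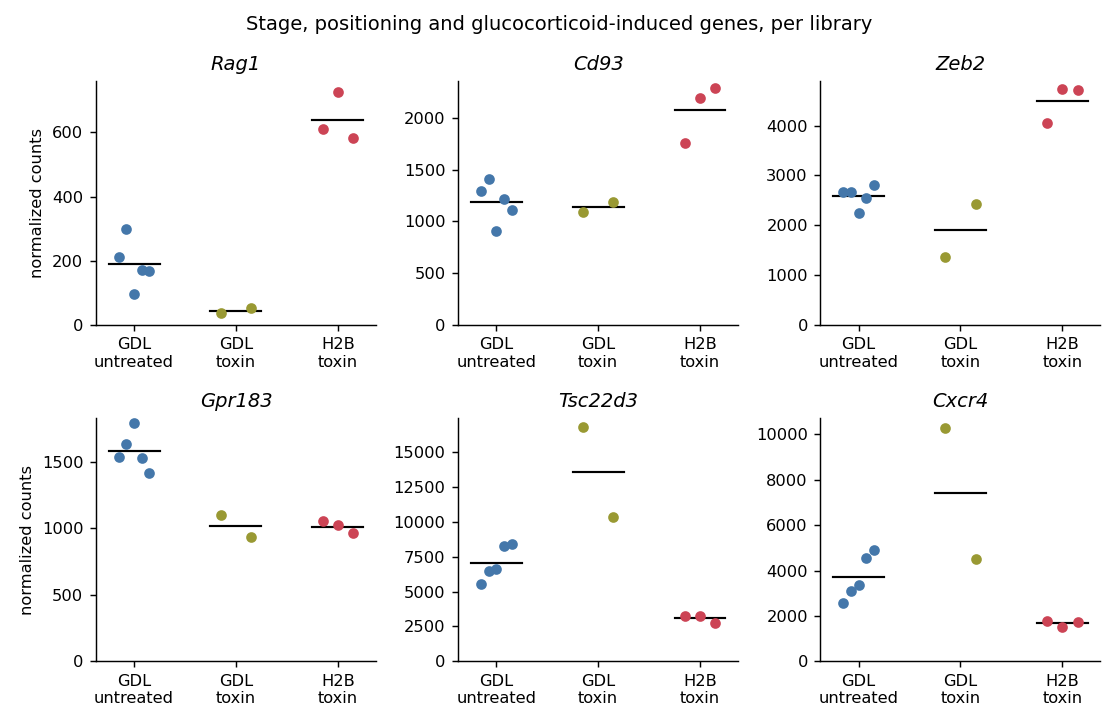
Normalized counts (y axes, from 0) of 6 genes in the untreated GDL (blue), depleted GDL (olive) and H2BeGFP toxin (red) libraries of experiment 2, 1 point per library with the group mean as a line. The 3 H2BeGFP toxin libraries lie above all others for Rag1, Cd93 and Zeb2 and below all others for Tsc22d3 and Cxcr4, while for Gpr183 they lie with the depleted libraries.

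The transcription factors of the B lineage that passed the test were all higher. Of 24 tested, 8 rose (33.3%) and none fell (median log2 0.26), where 7.32% of all tested genes rose and 8.34% fell. These genes are long, with a median exon length of 6877 bases. After the length correction 7 rose, with a median of 0.16. Zeb2, a zinc finger factor of transitional and marginal zone cells, was at 4045, 4726 and 4719.6 against 2669, 2669.9, 2236, 2535 and 2808, with 1368 and 2419 in the depleted group (log2 0.80 ± 0.14, adjusted p = 0.00402). The H2BeGFP toxin libraries did not overlap the others. Ikzf1, which encodes Ikaros, rose by log2 0.44 ± 0.08, Bach2, a repressor of plasma cell fate, by log2 0.52 ± 0.12, and Foxo1, a driver of Rag transcription and maturation, by log2 0.40 ± 0.09 (adjusted p = 0.00593, 0.011 and 0.0113). Tcf4, Mef2c and Bcl11a were the remaining members that rose with Ebf1. Zeb2 passed in all 8 leave-one-out fits. The list's count fell to 5 without untreated replicate 5, 6 or 7, to 3 without H2BeGFP toxin replicate 3 and to 2 without replicate 2.

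Of 19 tested mature follicular genes, 3 fell (15.8%) and none rose (median log2 -0.07). Of all tested genes, 8.34% were called lower and 15.7% in either direction. Ighd, the IgD heavy chain gene, which rises as B cells mature, stood at 10647 ± 956 against 10637 ± 1157 (log2 0.00 ± 0.12, adjusted p = 0.985). Cr2 and Fcer2a, the genes for CD21 and CD23, had log2 fold changes of -0.05 ± 0.11 and -0.19 ± 0.11, neither past the test. Gpr183, the oxysterol receptor EBI2 that guides B cells to the outer follicle, was the clearest exception, at 1052, 1020.1 and 963 against 1533, 1632, 1786, 1528 and 1416. The groups did not overlap (log2 -0.64 ± 0.09, adjusted p = 0.00196, passing in all 8 leave-one-out fits). The depleted GDL libraries, at 1101 and 932, lay near the H2BeGFP toxin level. Ccr7, the receptor for T zone chemokines, had a log2 fold change of -0.26 ± 0.08 and Cd38 one of -0.22 ± 0.07 (adjusted p = 0.0286 and 0.0469). These 2 calls were lost in most fits that left out 1 library, passing in 3 and 1 of 8.

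Among 19 homing and positioning receptors, 3 rose (15.8%) and 4 fell (21.1%), with a median log2 of 0.09. Of all tested genes 7.32% rose and 8.34% fell. P2ry10, a lysophospholipid receptor, was at 3769, 2815 and 3257 against 4825, 6162, 6377, 6165 and 5065 (log2 -0.80 ± 0.14, adjusted p = 0.0039), without overlap and in all 8 leave-one-out fits. Cxcr4, which retains B cell precursors in the bone marrow, was at 1774, 1502 and 1756 against 2578, 3096, 3371, 4556 and 4915, and at 10286 and 4497 in the depleted group. The H2BeGFP toxin libraries were the lowest 3 of the 10 (log2 -1.10 ± 0.22, adjusted p = 0.00666), and the call was lost without H2BeGFP toxin replicate 2. Itgb2, the shared chain of the beta-2 integrins, its alpha partner Itgal and the sphingosine phosphate receptor S1pr3 rose. Itgb2 was higher by log2 0.41 ± 0.11 (adjusted p = 0.0214). None of these 3 rose without untreated replicate 6 or H2BeGFP toxin replicate 2 or 3, and 1 did without untreated replicate 7, while 2 of the 4 falls held without H2BeGFP toxin replicate 2. Of 17 marginal zone genes, Nt5e, S1pr3 and Asb2 rose (17.6%) and Plac8 fell (5.88%). Nt5e, the ecto-enzyme CD73, was at 42, 30.7 and 43 against 8.29, 10.4, 4.99, 1.34 and 13.8 (log2 2.41 ± 0.65, adjusted p = 0.0226), and Plac8 at 4128 ± 379 against 6568 ± 1387 (log2 -0.65 ± 0.14, adjusted p = 0.00853). S1pr3 and Asb2 passed in 1 of 8 leave-one-out fits, Nt5e in 4 and Plac8 in 7.

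Mitosis genes were mostly higher, and 4 of 25 passed, all upward. Top2a, the topoisomerase that untangles chromosomes before division, was at 544, 594 and 908 in the H2BeGFP toxin group and 329, 338, 251, 334 and 530.4 in the untreated group, with 152 and 317 in the depleted group (log2 0.94 ± 0.24, adjusted p = 0.0173). Ncapg, a condensin subunit, stood at 132 ± 32.3 against 74.3 ± 27 (log2 0.85 ± 0.27, adjusted p = 0.0449). The level of Mki67, the source of the Ki-67 antigen, was 297 ± 80.0 against 177 ± 40.5 (log2 0.74 ± 0.24, adjusted p = 0.0476). Kif20a, a kinesin of cytokinesis, was the remaining call. The log2 fold change was above 0 for 23 of the 25 genes, with a median of 0.51. None passed without H2BeGFP toxin replicate 2, where the median was 0.61, or without replicate 3. The count was 2 without any one of untreated replicates 4 to 7 and 2 after the length correction, so that the calls rest on few libraries. Among 25 tested genes of DNA replication, Mcm3, a helicase subunit, rose by log2 0.30 ± 0.08, Pcna, the sliding clamp, fell by 0.31 on the log2 scale, and the median was 0.14. These shares lie below those of all tested genes (7.32% higher and 8.34% lower), and both counts were 0 without any one of untreated replicates 5 to 7 or H2BeGFP toxin replicates 2 and 3.

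The promoters of the called mitosis genes hold the letters known from cell cycle genes, which makes their sequences of use here. The motif TTTGAA, the cell cycle homology region, was found on either strand in 18 of 23 RefSeq promoter windows of 22 matched mitosis genes, from 250 bases before to 50 after the start. It was in 17.9% of all 32851 windows of that length. CCAAT, bound by the factor NF-Y, was likewise in 18 of the 23 and in 37.4% of all windows. The 250 bases upstream of the start are shown 5′ to 3′ on the gene's strand for the 3 called genes that matched (GRCm38.p6), with both motifs and their reverse complements in capitals. Both motifs occur in each. The windows are chr11:99024190-99024439 on the minus strand for Top2a, chr7:135716380-135716629 on the minus strand for Mki67 and chr5:45669675-45669924 on the plus strand for Ncapg.
Top2a: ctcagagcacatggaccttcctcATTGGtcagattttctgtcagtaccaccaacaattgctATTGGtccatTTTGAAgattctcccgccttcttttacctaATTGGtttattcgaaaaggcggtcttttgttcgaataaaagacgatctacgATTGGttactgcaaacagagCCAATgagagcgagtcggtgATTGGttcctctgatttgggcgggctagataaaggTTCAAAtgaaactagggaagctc
Mki67: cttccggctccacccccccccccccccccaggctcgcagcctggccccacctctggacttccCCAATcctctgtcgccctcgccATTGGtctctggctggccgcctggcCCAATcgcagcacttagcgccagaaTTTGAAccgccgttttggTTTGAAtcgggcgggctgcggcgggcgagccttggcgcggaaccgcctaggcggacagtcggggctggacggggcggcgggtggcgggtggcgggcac
Ncapg: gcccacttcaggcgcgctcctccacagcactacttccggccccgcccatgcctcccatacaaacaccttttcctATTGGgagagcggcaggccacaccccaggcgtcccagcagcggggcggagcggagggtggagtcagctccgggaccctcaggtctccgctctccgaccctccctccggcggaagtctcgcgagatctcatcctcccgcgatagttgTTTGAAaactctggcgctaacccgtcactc

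Replication-dependent histone genes, whose RNA is made in S phase, were lower. Of 29 tested, 12 were called lower and none higher, and the log2 fold change was below 0 for all 29 (median -0.55). Hist1h2ac was at 1097, 933 and 1276 against 2089.9, 2035, 2785, 2589 and 1577 (log2 -0.99 ± 0.17, adjusted p = 0.00417), and Hist1h4c at 2205 ± 356 against 4167 ± 1044 (log2 -0.89 ± 0.19, adjusted p = 0.0086). The H2BeGFP toxin libraries were below every untreated library for Hist1h2ac. These genes are short, with a median exon length of 620 bases, and close copies can share reads. After the length correction 9 were called, with a median of -0.39. Without H2BeGFP toxin replicate 2, 1 was called (median -0.42), and without untreated replicate 8, 18 were (median -0.63).

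Tsc22d3, the gene for the glucocorticoid-induced leucine zipper, was the clearest stress hormone gene. It stood at 3271, 3253 and 2774 in the H2BeGFP toxin libraries, 5520.0, 6459, 6638, 8224 and 8372 in the untreated and 16734 and 10316 in the depleted GDL libraries. The H2BeGFP toxin group was the lowest, the depleted group the highest, and none of the 3 groups overlapped (log2 -1.17 ± 0.15, adjusted p = 0.000982). It passed in all 8 leave-one-out fits and was the one list member that passed with the T cell level as covariate (log2 -1.31, adjusted p = 0.0308). In all, 4 of 18 tested glucocorticoid-induced genes fell, Cxcr4, Dusp1 and Nfkbia beside it, and Klf13 rose by log2 0.41 ± 0.11 (list median -0.23). Dusp1, a phosphatase of stress kinases, was at 221 ± 21.7 against 391 ± 55.5 (log2 -0.81 ± 0.20, adjusted p = 0.0155). Fkbp5, a chaperone of the glucocorticoid receptor, did not pass, at 274 ± 44.6 against 235 ± 45.6 (log2 0.23 ± 0.20, adjusted p = 0.474), nor did Ddit4, an inhibitor of mTOR signalling, at 251 ± 33.6 against 415 ± 138 (log2 -0.67 ± 0.25, adjusted p = 0.0741). Of the 4 that fell, 1 was called without H2BeGFP toxin replicate 2 and 2 without replicate 3.

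The core letters of the glucocorticoid response element, AGAACA, were in 5 of 29 promoter windows of the 18 genes and in 19.0% of all windows, on either strand. Cxcr4 and Tsc22d3 were the called genes with a match. These windows are short, and response elements further away were not examined.

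Immediate early genes of B cell receptor signalling were lower in the same libraries. Of 22 tested, 9 fell (40.9%) and none rose (median log2 -0.21), where 8.34% of all tested genes fell and 7.32% rose. Fosb, an AP-1 subunit, was at 209, 222 and 271 against 443, 548, 478, 616 and 299 (log2 -0.99 ± 0.19, adjusted p = 0.0058). Cd69, which holds lymphocytes in tissue by blocking S1PR1, was at 738, 641 and 662 against 1123, 1336, 1071, 1269 and 986, with 1466 and 912 in the depleted group (log2 -0.76 ± 0.14, adjusted p = 0.00462). For Cd69 the H2BeGFP toxin libraries lay below every untreated library, and both genes passed in all 8 leave-one-out fits. Dusp2, a nuclear phosphatase induced with them, had a log2 fold change of -0.35 ± 0.09 (adjusted p = 0.0172). The count was 2 without H2BeGFP toxin replicate 2 or replicate 3, 5 without untreated replicate 4, 5 or 7, 4 without replicate 6, and 4 after the length correction. The signalling core itself went slightly upward, with 4 of 27 genes higher (14.8%) and 1 lower (3.7%) and a median of 0.12. Pik3ap1, the adaptor BCAP, was at 5562 ± 632 against 4026 ± 189 (log2 0.46 ± 0.08, adjusted p = 0.00472). Inpp5d, the inhibitory lipid phosphatase SHIP1, rose by log2 0.38 ± 0.10, as did Cd81 and Plcg2, with 2 of the 4 called without H2BeGFP toxin replicate 2, whereas Bcl10, which links the receptor to NF-kB, was at 1597 ± 234 against 2212 ± 145 (log2 -0.48 ± 0.10, adjusted p = 0.00741).

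The interferon-induced genes that passed the test were all higher. Of 30 type I interferon response genes, 7 rose (23.3%) and none fell (median log2 0.24). Of 20 interferon gamma response genes, 6 rose (30%) and none fell (median 0.31). Among all tested genes 7.32% rose and 8.34% fell. Oasl2, an antiviral protein of the oligoadenylate synthetase family, rose by log2 0.76 ± 0.21, Oas3 by log2 0.82 ± 0.24, and Ddx58, the RNA sensor RIG-I, by log2 0.41 ± 0.11. Gbp6, a guanylate-binding GTPase, was at 298 ± 96.7 against 157 ± 19.6 (log2 0.89 ± 0.23, adjusted p = 0.0178) and Gbp5 at 648, 685 and 818 against 545, 527, 434, 538 and 532 (log2 0.47 ± 0.11, adjusted p = 0.0134). The groups compared did not overlap for Gbp5, with untreated replicate 6 the lowest. The type I count was 1 without H2BeGFP toxin replicate 2 or 3, 3 without untreated replicate 5 or 6, 4 without replicate 4 and 2 without replicate 7. The interferon gamma count was 0 without H2BeGFP toxin replicate 3, 2 without replicate 2 and 3 without untreated replicate 6.

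Antigen presentation genes that passed the test went in both directions. Of 13 class II genes, 1 rose (7.69%) and 3 fell (23.1%), where 7.32% of all tested genes rose and 8.34% fell. Ciita, the master regulator of the class, rose by log2 0.34 ± 0.09. H2-Aa, a class II alpha chain, was at 28815 ± 2588 against 38213 ± 2415 (log2 -0.41 ± 0.13, adjusted p = 0.038), and H2-Ob, a modulator of peptide loading, and Ctss, the protease that trims the invariant chain, fell by 0.43 and 0.33 on the log2 scale. Ciita and Ctss did not pass after the length correction (adjusted p = 0.0805 and 0.202). None of the 3 falls was called without H2BeGFP toxin replicate 2 or 3, and 1 was without untreated replicate 6. Of 20 class I and processing genes, 6 rose (30%) and 1 fell (5%), with a median of 0.04. The 6 became 0 and 1 without H2BeGFP toxin replicates 3 and 2, 3 without untreated replicate 5 and 2 without replicate 6 or 7. Class I genes have close copies between which reads can be shared.

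Ribosomal protein genes had the highest share of called members of the 45 lists. Of 36 ribosomal protein genes, 34 fell and none rose, with a median log2 fold change of -0.53. With quantile scaling 19 fell and the median was -0.30. Rpl15 was at 5026, 3545 and 4527 in the H2BeGFP toxin group and 6945, 7455, 8434, 7603 and 5724 in the untreated group, with 8620.1 and 6226 in the depleted group (log2 -0.73 ± 0.14, adjusted p = 0.00514). The groups compared did not overlap, and H2BeGFP toxin replicate 2 was the lowest of all 10 libraries for Rpl15. Rps13 was at 6745 ± 859.7 against 11789 ± 2056 (log2 -0.79 ± 0.15, adjusted p = 0.0058). Of 25 nuclear genes of oxidative phosphorylation, 17 fell and none rose (median -0.45). Cox7c, a small subunit of cytochrome oxidase, was at 666 ± 59.9 against 1099 ± 143 (log2 -0.72 ± 0.13, adjusted p = 0.00462), and Sdhc, a membrane subunit of complex II, at 618 ± 33.5 against 862 ± 62.9 (log2 -0.48 ± 0.09, adjusted p = 0.00625). The calls of both families depended on H2BeGFP toxin replicate 2. Without it 1 gene of each was called, while the medians were -0.44 and -0.39. In that fit 1.47% of all tested genes were called. The oxidative phosphorylation count was also reduced to 9 without H2BeGFP toxin replicate 3 and to 11 without untreated replicate 6. Processed copies of ribosomal protein genes can share reads with them.

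Several abundant noncoding RNAs were lower too. Of 8 tested genes of the list of RNA quality and abundant noncoding RNAs, Rmrp, Rn7sk, Rpph1 and the coding gene Lars2 fell and none rose, with 3 above 0 (median log2 -0.53), and DESeq2 called 1 higher. Rmrp, the RNA of an endonuclease that processes ribosomal RNA, was at 8596, 9558 and 15505 against 21406, 26398, 32284, 33348 and 18124 (log2 -1.24 ± 0.22, adjusted p = 0.00472). Rn7sk, which holds the elongation factor P-TEFb inactive, was at 145166 ± 31762 against 349042 ± 92864 (log2 -1.23 ± 0.27, adjusted p = 0.00986), and Rpph1, the RNA of ribonuclease P, at 213796 ± 35187 against 389078 ± 93788 (log2 -0.84 ± 0.27, adjusted p = 0.0479). Ccdc107, which fell by 1.14 on the log2 scale, lies at the Rmrp locus on chromosome 4, on the other strand. Whether counting used strand is not given, so their reads cannot be told apart. Rmrp passed in all 8 leave-one-out fits and Rpph1 in 1.

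These differences moved with exon length, taken as the bases in all annotated exons of a gene, across all coding genes. The median log2 fold change was -0.41 for the 267 coding genes with at most 1000 exonic bases, -0.24 for the 462 between 1000 and 1500 bases, and 0.18 for the 1088 above 10000 bases. In the shortest class 34.5% were called lower and 0.375% higher, and in the longest 1.56% lower and 22.2% higher. Short genes outside the ribosomal protein and oxidative phosphorylation lists showed it as well, with 181 of 714 genes of up to 1500 bases called lower, 2 higher, and a median of -0.29. Per library, the median deviation of genes over 6000 bases minus that of genes of at most 1500 bases was 0.30, 0.58 and 0.38 in the H2BeGFP toxin group. It ranged from -0.18 to 0.28 in the untreated group, with replicate 8 the highest, and was -0.16 and 0.15 in the depleted group. The H2BeGFP toxin libraries did not overlap the untreated ones (difference 0.42, n = 3 and 5, two-sided exact permutation p = 0.0357, the smallest that 56 splits allow, adjusted p = 0.107 over 3 such tests). A correction for the trend with length in each library was chosen after the data were seen. It reduced the trend but left a median of -0.2 in the class of at most 1000 bases and -0.05 in the next. With it, 27 of 36 ribosomal protein genes (median -0.43) and 14 of 25 oxidative phosphorylation genes (median -0.33) were called lower. In all, 1719 of 13261 genes were called (13%). The median exon lengths of these 2 lists were 2011 and 2101 bases, which can exceed the length of the transcripts expressed. Whether length accounts for the calls that remained was not tested. Rag1, Cd93, Zeb2, Gpr183, Tsc22d3 and Cd69 were called with the correction and without it.

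**Figure D4:**
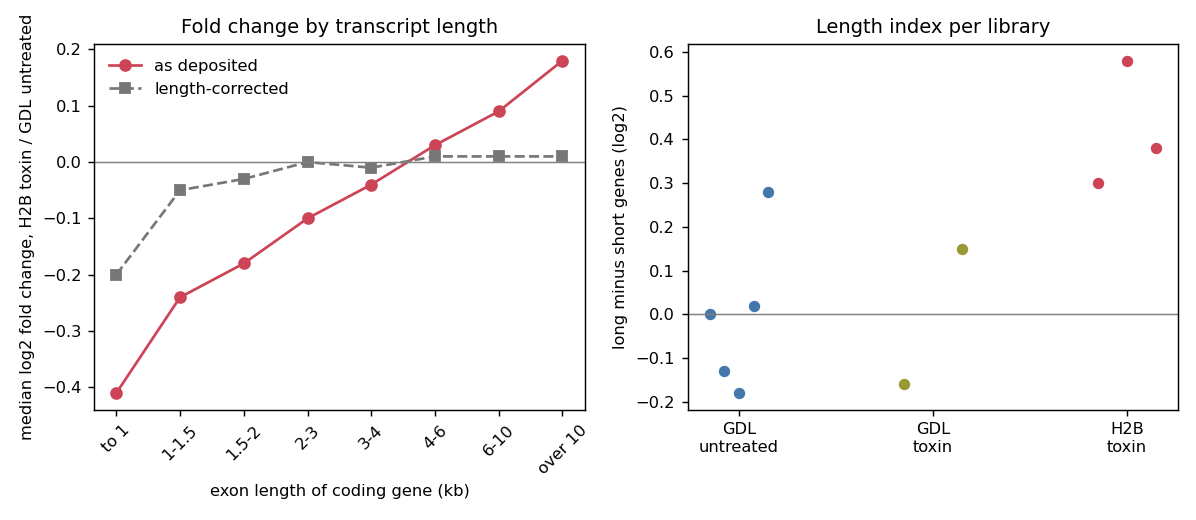
Left, median log2 fold change (y axis, H2BeGFP toxin over untreated GDL) of coding genes in 8 classes of exon length in kb (x axis), as deposited (red) and after the length correction (grey). Right, the length index per library: genes over 6000 bases minus genes of at most 1500 bases, which is 0.30 to 0.58 in the H2BeGFP toxin libraries and at most 0.28 in the untreated ones.

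The upstream sequence of Rpl15 shows the letters shared by many ribosomal protein promoters. CTTCCG, a core of ETS factor binding sites that was added to the search after the data were seen, was on either strand in 17 of 30 promoter windows of 27 matched ribosomal protein genes and in 16.9% of all windows. Of the 26 matched genes that were called lower, 16 held it. The 250 bases upstream of Rpl15 (chr14:18270987-18271236 on the minus strand, GRCm38.p6) carry it at 2 places, in capitals as its reverse complement.
Rpl15: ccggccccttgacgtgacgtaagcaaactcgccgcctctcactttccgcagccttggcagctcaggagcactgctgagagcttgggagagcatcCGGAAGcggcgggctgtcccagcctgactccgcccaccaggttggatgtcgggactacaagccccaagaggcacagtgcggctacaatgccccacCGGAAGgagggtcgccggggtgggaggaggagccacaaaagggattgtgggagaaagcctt

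Genes of other cells that a B220+CD93+ sort can hold were low but not absent, and several were higher in the H2BeGFP toxin group. Of 20 common T cell genes, 8 rose and none fell (median log2 1.27), with summed levels of 7357 to 8504 against 6065 to 7267, of which Cd2, shared with B cells, made up most. Lat, an adaptor of the T cell receptor, was at 153, 93.2 and 124 in the H2BeGFP toxin group, 34, 23.9, 21.2, 42.8 and 73.2 in the untreated group and 45 and 43.1 in the depleted group (log2 1.75 ± 0.34, adjusted p = 0.00625). Untreated replicate 8 lay well above the other untreated libraries. Tcf7, a T lineage transcription factor, was at 369.5, 274 and 339.7 against 87.9, 71.8, 41.2, 92.2 and 277 (log2 1.81 ± 0.39, adjusted p = 0.00913), and Skap1, a further adaptor, at 169, 106 and 127 against 31.5, 37.5, 27.4, 33.4 and 99.9 (log2 1.68 ± 0.35, adjusted p = 0.00794). Of 8 αβ T subset genes Cd4, Cd8a and Il2ra rose, and of 11 NK and cytotoxic genes Ncr1 and Il2rb did. Ncr1, the activating receptor NKp46, was at 29.1, 41 and 69.8 against 5.8, 2.08, 7.48, 8.02 and 52.5 (log2 2.21 ± 0.69, adjusted p = 0.0413). Untreated replicate 8 lay within the range of the H2BeGFP toxin libraries for Tcf7 and Ncr1. The NK calls were lost with edgeR and DESeq2 on recovered reads and without any one of untreated replicates 4 to 6 or the H2BeGFP toxin libraries. Of 14 macrophage and monocyte genes, Itgam and Ccr2 rose. Limma called no tested neutrophil, erythroid or γδ T cell gene (2, 7 and 2 genes), and edgeR and DESeq2 called none either. Of 11 measured genes of the γδ T cell list, 2 reached the mean needed for testing, so that the others were not tested. All 7 erythroid genes had a log2 fold change below 0 (median -1.21), 3 were called lower with the 2 groups alone and 1 without untreated replicate 8. At an unadjusted p under 0.05, 2 erythroid genes were lower and 0 genes of the other lists differed.

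The mean log2 level of the 20 common T cell genes was 7.36, 6.65 and 7.10 in the H2BeGFP toxin libraries. It was 5.58, 5.26, 5.08, 5.63 and 7.04 in untreated replicates 4 to 8, and 5.35 and 5.82 in the depleted group. The H2BeGFP toxin level was higher by 1.32 (n = 3 and 5, two-sided exact permutation p = 0.0714, adjusted p = 0.107), and untreated replicate 8 overlapped it. The NK level differed by 1.24 (exact permutation p = 0.143, adjusted p = 0.143). Without untreated replicate 8, 19 of the 20 T cell genes were called. Without H2BeGFP toxin replicates 1, 2 and 3 the count was 5, 2 and 4, without untreated replicate 4, 5 or 6 it was 5, and edgeR called 5. In replicate 8, whose T cell level lay within the H2BeGFP toxin range, Rag1 was at 169, Cd93 at 1114, Gpr183 at 1416 and Tsc22d3 at 8372. Its Top2a, Hist1h2ac, Fosb and Rpl15 were at 530, 1577, 299 and 5724. The values of the other libraries are given with each gene above. These 8 genes were picked after their values were seen, and 1 library cannot show which genes follow the T cell level. With the T cell level as a covariate, 11 of the 2093 genes were called again, Tnfrsf26, Tspan32, Mrgpre, Gm15446, Pkd1l1, Tsc22d3 and Slc35g1 among them, while Rag1 had an adjusted p of 0.0985, Cd93 of 0.0989 and Zeb2 of 0.205. The part of other cells in the differences was not tested.

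**Figure D5:**
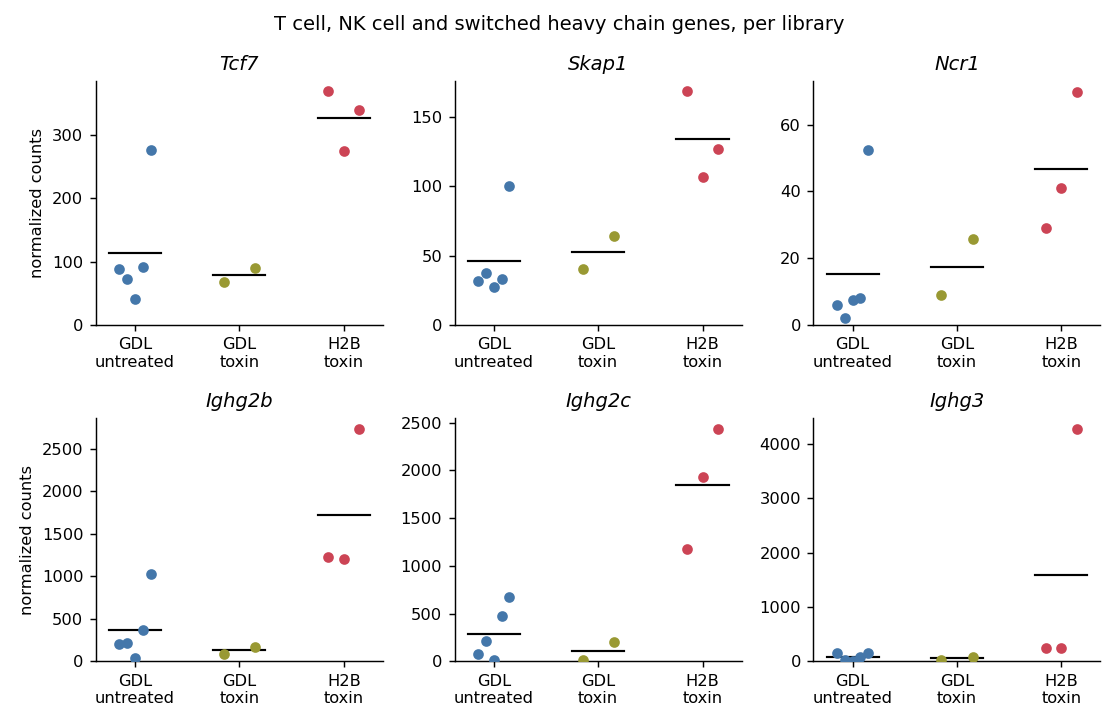
Normalized counts (y axes, from 0) of 3 T and NK cell genes and 3 switched heavy chain genes in the untreated GDL (blue), depleted GDL (olive) and H2BeGFP toxin (red) libraries, 1 point per library with the group mean as a line. Untreated replicate 8 reaches the H2BeGFP toxin range for Tcf7 and Ncr1, and H2BeGFP toxin replicate 3 is the highest library for each heavy chain gene.

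Class-switched heavy chain genes were higher and uneven. Ighg2b, the constant gene of IgG2b, was at 1232, 1208 and 2734 in the H2BeGFP toxin group and 211, 211, 44.9, 370.0 and 1032 in the untreated group (log2 2.74 ± 0.63, adjusted p = 0.0113). Ighg2c was at 1179.7, 1927 and 2429 against 77.1, 214, 11.2, 472 and 672 (log2 3.60 ± 0.99, adjusted p = 0.0245), and Ighg3 at 249.5, 252 and 4269 against 147, 22.9, 7.48, 81.5 and 162 (log2 3.62 ± 0.92, adjusted p = 0.0173). Ighg1 rose by log2 2.16 ± 0.68. H2BeGFP toxin replicate 3 was the highest of the 10 libraries in Ighg2b, Ighg2c and Ighg3. Igha, the IgA gene, was at 92.1, 76.8 and 5088 against 25.7, 76, 64.9, 72.1 and 206 and did not pass (log2 2.19 ± 0.97, adjusted p = 0.131), with replicate 3 standing far above the rest. Ighm, expressed by every immature B cell, was at 103784 ± 2903 against 84776 ± 10236 (log2 0.30 ± 0.15, adjusted p = 0.17). None of the 4 IgG calls was made without H2BeGFP toxin replicate 2 or without replicate 3. Without untreated replicate 4, 2 were made, and DESeq2 called 2 constant genes. The median log2 of 9 tested constant genes was 2.16 with all libraries and 2.56 without H2BeGFP toxin replicate 2. Limma called none of 11 plasmablast genes (median log2 0.10), 2 had an unadjusted p under 0.05, and edgeR and DESeq2 called 1 each.

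Other genes with large differences were Gpm6a, a membrane glycoprotein of neurons, at 120.3 ± 37.5 against 37.8 ± 9.63 (log2 1.64 ± 0.30, adjusted p = 0.0049), and Tet1, a methylcytosine dioxygenase, at 173 ± 25.1 against 66 ± 18.2 (log2 1.42 ± 0.24, adjusted p = 0.00392). Cpd, a carboxypeptidase, and Gas7, a growth arrest gene, rose by log2 1.47 ± 0.30 and 1.58 ± 0.38. Slc35g1, a membrane transporter, was at 22.1, 16.4 and 21.1 against 84.6, 64.6, 54.9, 52.1 and 81.8 (log2 -1.70 ± 0.25, adjusted p = 0.00211), without overlap. Cmss1 was at 35 ± 12.4 against 85.9 ± 10.6 (log2 -1.31 ± 0.25, adjusted p = 0.0058), and Serpinb7, a serine protease inhibitor, fell by 1.46 on the log2 scale. Gpm6a, Tet1, Cpd and Slc35g1 passed in all 8 leave-one-out fits.

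The remaining lists are given by their counts, where 15.7% of all tested genes were called. None of 17 glycolysis genes was called by limma, edgeR or DESeq2 (median log2 -0.04), and 6 had an unadjusted p under 0.05. Of 16 BAFF and CD40 axis genes 1 rose, of 14 BCL2 family genes 1 fell, and of 16 p53 targets 2 rose. Of 19 cholesterol synthesis genes 2 rose, of 18 cytokine receptor chains 3 rose, among them Il6st, the shared chain gp130, by log2 0.63 ± 0.13, and of 20 Toll-like receptor genes 2 rose and 2 fell. For FOXO targets the counts were 3 and 3 of 19, for ribosome biogenesis and MYC targets 5 and 3 of 24, and for the unfolded protein response 1 and 3 of 22, higher and lower. In the same order they were 2 and 0 of 12 B-1 and atypical genes, 1 and 1 of 16 NF-kB genes and 2 and 1 of 15 IL-4 and STAT6 response genes. They were 2 and 0 of 16 ATF4 and amino acid genes, 1 and 1 of 13 heat shock chaperones and 1 and 0 of 12 dendritic cell genes. Of 12 mitochondrial genome genes 1 rose and 2 fell (median -0.29), and none of 6 sex-linked genes was called. Summed levels of the mitochondrial genome list were 4891812 to 6639386 in the H2BeGFP toxin group and 8274690 to 12530555 in the untreated group. Of the 45 lists, 195 of 697 different tested genes were called.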

How the data were processed

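Per the labels' protocols, RNA of sorted splenic immature B cells was prepared with an RNeasy Plus Micro kit and sequenced from stranded total RNA libraries (SMART-Seq, Takara). The submitters' processing notes name bcl2fastq, STAR 2.5.2b and mm10. How reads were counted, whether strand was used and how scaling factors were found is not given in the sources. The deposited values are a signal: normalized counts that the authors scaled per library, per the labels. All values gave whole reads (100%, tolerance 0.01), and 0 columns belonged to no sample. Gene coordinates and exon lengths came from GENCODE M21 (GRCm38, 98.8% of identifiers found) and promoters from RefSeq (GRCm38.p6).

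Genes with a mean of at least 10 were tested on log2(value + 1) by limma's moderated linear model with a mean-variance trend (version 3.58.1, R 4.3.3), a scale that understates changes of low genes. The 3 groups of experiment 2 were fitted together, without covariates, and p-values were Benjamini-Hochberg adjusted over all tested genes. Values are mean ± SD and fold changes ± SE, with 3 and 5 libraries. Groups overlapped where their ranges met. The counting error was 5.27% at the median tested gene and 31.2% at a mean of 10. In 14 pairs of replicates, counts differed beyond sampling noise (chi-square per degree of freedom at least 9.25, Spearman's rho across genes 0.982 to 0.993). Each library was counted as 1 sample, although this spread may be technical. The fit was tested on simulated data.

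Genes were named from those with an adjusted p under 0.05: up to 12 with the highest and 12 with the lowest fold change (no overlap, mean of at least 50, without receptor segments, predicted genes, pseudogenes and small RNAs), up to 4 per list and the 6 with the smallest p. The 6 with the highest mean, on-off genes and fixed stage, sex-linked and Trdc genes were added. Genes of the chromosome 7 locus beyond this rule, Rag2, Ighm, Igha, Ddit4, Fkbp5, Cd79a, Ms4a1 and other genes listed by name with their group were chosen after their values were seen. The comparison and the lists were chosen with earlier results of these data known. Trdc and the Y-linked genes are not analysed here.

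Alternatives were pseudocounts of 0.1 and 5, no filter, a mean of at least 50, quantile and TMM scaling, the 2 groups alone, the T cell level as covariate, edgeR 4.0.16 and DESeq2 1.42.0 on recovered reads, other limits for on-off genes and windows, leaving out each library, and a length correction added later (lowess, span 0.3).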

Additional observations from a re-analysis of the deposited data

Results flagged for a closer look

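The untreated GDL group (5 libraries) was examined for a library apart from the rest by Dixon's criterion, for 65 levels given in the report. The criterion was met 7 times, and chance alone would meet it in about 1 in 20 groups. Of these, 6 concern untreated replicate 8. Its mean log2 level of common T cell genes was 7.04, where the other untreated libraries lay at 5.08 to 5.63. In the same library Tcf7 stood at 277 (others 41.2 to 92.2), Skap1 at 99.9 (27.4 to 37.5), Ncr1 at 52.5 (2.08 to 8.02), Igha at 206 (25.7 to 76.0) and Mrgpre at 394 (296.5 to 318). In untreated replicate 6, Gbp5 stood at 434, below the other untreated libraries at 527 to 545. Groups of 2 and 3 libraries are too small for this criterion.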

How the results depend on the processing

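The count of called genes (2093) lay between 1513 (no filter) and 2618 (the 2 groups alone) under the other pseudocounts, filters, scalings, count models and the length correction, with 2102 for edgeR (2020 shared with limma) and 2615 for DESeq2 (2063 shared). With the T cell level as covariate it was 18, with 1 of the 195 called list genes and 7 of the 135 called named genes, and the cause was not tested. Leaving out 1 library gave 196 to 2994 genes, 28 to 263 list genes and 41 to 133 named genes, lowest without H2BeGFP toxin replicate 2 and highest without untreated replicate 8. No tested named gene changed direction while called. Of them, 23 lost the call with the length correction, 7 with edgeR and 5 with DESeq2, which gave 1 further called gene, Ighg3, no adjusted p. The median of all genes moved by less than 0.1 on the log2 scale under every scaling. The on-off rule gave 1 gene at each limit. The highest share of a window was 52.2% at 10 Mb and 54.5% at 5 Mb, the latter on chromosome 14. No paired analysis was possible because the 2 groups share no replicate number. Depth limits the lowest genes, where counting error alone is 31.2%.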

Other observations

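Classes of noncoding and provisional genes differed in direction. Of 149 tested small nucleolar RNA genes, which guide the modification of ribosomal RNA, 25 were lower in the H2BeGFP toxin group and 1 higher (median log2 -0.49). Of 17 small Cajal body RNA genes, which guide the modification of spliceosomal RNA, 5 were lower (median -0.36), and of 81 small nuclear RNA genes 11 were lower and 1 higher (median -0.19). Of 468 processed pseudogenes, 50 were lower and 9 higher (median -0.15), and reads of their parent genes can fall on them. The opposite direction appeared among 302 gene models that GENCODE marks as to be experimentally checked, of which 39 were higher and 2 lower (median 0.30). Sense-intronic transcripts, which lie inside introns of coding genes, had a median of 0.32, with 6 of 49 higher and 2 lower. Antisense transcripts had a median of -0.08, with 2 of 314 higher and 8 lower. All tested genes had 7.32% higher and 8.34% lower.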
